A study of Mus musculus with 27 samples.

Results

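The genes described here are the matrix metalloproteases (Mmp), the secreted proteases of the ADAMTS family and the tissue inhibitors of metalloproteases (Timp). They were chosen by symbol alone, without use of their levels, as every Mmp gene with a number, every numbered Adamts gene and Timp1 to Timp4. The rule found 46 of the 55487 genes in the table, of which 23 were Mmp, 19 Adamts and 4 Timp genes. RNA sequencing of mouse heart ventricle had given 27 libraries in 7 groups, made to follow expression after birth and the effect of more or less MBNL1, a splicing regulator that binds RNA. At postnatal day 60 (P60), 5 libraries labelled KO (MBNL1 loss of function) taken 7 days after knockout were set against 4 controls of that time, and 4 libraries labelled KO taken at 14 days against 3 controls. At P7, 4 libraries labelled Tg (MBNL1 gain of function) were set against 3 controls, and at P1 there were 4 control libraries. Controls are labelled Ctl only, and the alleles they carry, the agent that started the knockout, the cell type it acts in, the deleted part of Mbnl1, the promoter of the transgene, the strain and the sex are not stated. Nothing in the labels ties the libraries of a group to separate animals, so the p-values measure only the spread between these libraries, which may be technical.

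MMPs are zinc-dependent proteases made as inactive precursors. Once activated, by plasmin, furin-type proteases or other MMPs, they cleave collagens, gelatin, laminins and other matrix proteins. ADAMTS proteases bind the matrix through thrombospondin repeats. Some of them trim procollagens and others cleave the proteoglycans versican and aggrecan. TIMPs bind the active site of these enzymes and block it, and the balance of proteases and TIMPs is known for its part in matrix turnover of the growing and the injured heart, where fibroblasts and immune cells make many of them. All values given here are transcript levels. Protein and protease activity were not measured.

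Total counts ranged from 21929347 to 25675115 per library. Levels are given as CPM, read counts relative to library size after TMM scaling over all libraries. A call means that edgeR's quasi-likelihood test, with Benjamini-Hochberg adjustment over all genes tested, gave an adjusted p below 0.05. Mbnl1 stood at 2927 to 4079 CPM in the libraries labelled Tg, against 96.9 to 104 CPM in the P7 controls. At 7 days it stood at 219, 103, 168, 116 and 166 CPM in libraries 1 to 5 labelled KO, against 145 to 152 CPM in their controls, so libraries 1, 3 and 5 lay above every control. At 14 days it stood at 117 to 139 CPM in the libraries labelled KO, against 152 to 169 CPM in their controls. Since the deleted part is not given, the total over the gene does not check these labels, and every direction below at 7 days rests on the labels. The 8 cardiomyocyte markers were detected in every group, and their summed level was 20680 to 46822 CPM in the libraries labelled KO at 7 days, against 78065 to 83209 CPM in their controls.

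Which members are used in the ventricle was read first from the P60 controls of 7 days, per kilobase of exon so that genes can be compared with each other. Timp2, an inhibitor that also takes part in activating pro-MMP2, was highest at 57.4 ± 4.65 CPM per kilobase (SD, n = 4). Mmp15, a membrane-type MMP, followed at 42.2 ± 3.09, then Timp3, the inhibitor that stays bound to the matrix, at 36.0 ± 3.08, and Mmp2 (gelatinase A) at 31.2 ± 2.20 CPM per kilobase. The ranges of Mmp15 and Timp3 overlapped, as did those of Timp3 and Mmp2, so only the first place was set apart. Timp4, the inhibitor known for its high level in adult heart, was next at 13.7 ± 1.43 CPM per kilobase, and Adamts1 was the leading ADAMTS gene at 8.63 CPM per kilobase. In the P7 controls, Mmp15 (82.9 CPM per kilobase), Timp2 (71.4) and Mmp2 (65.3) also led, while Mmp14, the membrane-type MMP that activates pro-MMP2, was next at 22.3 CPM per kilobase. Mmp1a, Mmp1b and Mmp20, the enamel protease, had no count in any library. Mmp7, Mmp10, Mmp21, Mmp27 and Adamts18 had at most 9 counts in a library, and these 8 members passed the low-count filter in no comparison.

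Timp1, the inducible inhibitor, had the largest log2 fold change of the members tested at 7 days, and the TIMP genes moved in opposite directions. At 7 days Timp1 stood at 309, 45.3, 285, 63.6 and 326 CPM in libraries 1 to 5 labelled KO, against 2.53, 3.59, 3.32 and 2.31 CPM in the controls. Every library labelled KO lay far above every control, and libraries 2 and 4 lay well below the other three. The log2 fold change was 6.11 ± 0.71 (SE, adjusted p = 7.4e-05), and without libraries 1 and 5 it was 5.47 (adjusted p = 8.2e-05). At 14 days Timp1 stood at 38.6, 30.9, 44.5 and 35.3 CPM in the libraries labelled KO, against 2.45, 3.12 and 2.73 CPM in the controls, a log2 fold change of 3.72 ± 0.17 (adjusted p = 3.5e-07). The groups again did not overlap, and the libraries of 14 days lay close together, near the level of libraries 2 and 4 of 7 days.

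Timp4 fell at both times. It stood at 55.5, 31.8, 34.2, 36.3 and 52.4 CPM in the libraries labelled KO at 7 days, against 91.9, 73.8, 74.4 and 82.1 CPM in the controls (log2 fold change -0.95 ± 0.18, adjusted p = 0.0014). In the later samples it stood at 50.5, 60.2, 23.9 and 44.5 CPM in the libraries labelled KO, against 84.5, 102 and 71.1 CPM in the controls (-0.98 ± 0.25, adjusted p = 0.010), a fall that total count scaling took to -0.6, no longer called (adjusted p = 0.053). Neither pair of groups overlapped. In bulk tissue, fewer cells of a type and less RNA per cell cannot be told apart, and 7 of 8 cardiomyocyte markers fell beside Timp4 at each time. Their part in the result was not tested.

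Timp3 fell at 7 days, at 224, 196, 221, 205 and 200 CPM in the libraries labelled KO, against 280, 297, 326 and 269 CPM in the controls (log2 fold change -0.50 ± 0.09, adjusted p = 0.0011), although with total count scaling it was -0.08 and not called. At 14 days the groups overlapped, at 240 to 304 CPM in the libraries labelled KO against 239 to 276 CPM in the controls (0.06 ± 0.10, adjusted p = 0.68). Of the exon bases of Timp3, 21.3% overlap Syn3 on the other strand, and without a stated strand setting reads there cannot be assigned. Timp2 was at 214, 377, 267, 316 and 177 CPM in the libraries labelled KO at 7 days, against 202 to 245 CPM in the controls, with a log2 fold change of 0.25 ± 0.19 that was not called (adjusted p = 0.29). Libraries 2, 3 and 4 lay above all controls and libraries 1 and 5 did not. At 14 days Timp2 rose, with 337, 389, 407 and 374 CPM in the libraries labelled KO, against 245, 212 and 234 CPM in the controls (0.68 ± 0.10, adjusted p = 0.00027).

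**Figure D1:**
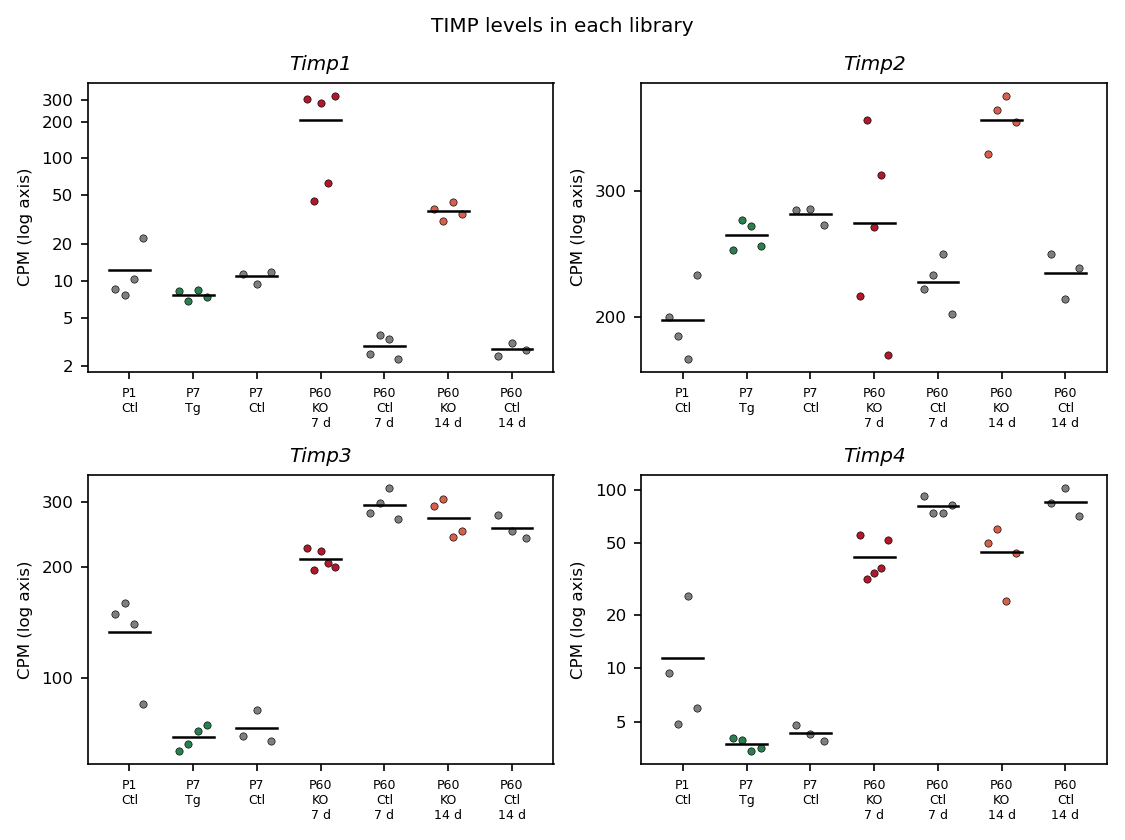
Levels of the 4 TIMP genes in each library, in CPM on a log axis, by group; points are libraries and bars are group means. Timp1 lies at 45.3 to 326 CPM in the libraries labelled KO at 7 days, against 2.31 to 3.59 CPM in their controls, and Timp4 lies at 71.1 to 102 CPM in P60 controls, against 3.91 to 4.84 CPM in P7 controls.

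The make-up of the TIMP transcripts followed from these levels. Timp1 made up 79.1%, 28.8%, 76.0%, 38.9% and 82.3% of the summed TIMP level per kilobase in libraries 1 to 5 labelled KO at 7 days, against 2.57% to 3.61% in the controls. At 14 days it made up 19.1% to 26.7% in the libraries labelled KO, against 2.42% to 3.31% in the controls. The summed MMP level per kilobase divided by the summed TIMP level was 0.160, 0.933, 0.204, 0.737 and 0.152 in libraries 1 to 5 labelled KO at 7 days, against 0.746 to 0.840 in the controls. Libraries 1, 3 and 5 therefore lay below every control, library 2 above every control and library 4 just under the lowest. At 14 days the ratio was 0.763 to 0.976 in the libraries labelled KO, against 0.761 to 0.959 in the controls, and the groups overlapped. The ratio of P7 and P1 libraries was above that of every P60 library, at 2.25 to 2.44 in the libraries labelled Tg, 2.03 to 2.10 in the P7 controls and 1.64 to 1.95 in the P1 controls. These ratios compare transcripts, they rest on annotated exon lengths, and no test was made of them.

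Over all members, 36 were tested at 7 days, of which 16 rose and 4 fell. Of all genes tested, 50.7% were called, 26.4% as higher and 24.3% as lower. The members' median log2 fold change was 0.58, against 0.03 over all genes tested. The split was 9 higher and 1 lower of 16 MMPs tested, 6 higher and 1 lower of 16 ADAMTS genes, and 1 higher and 2 lower of the 4 TIMPs. Without libraries 1 and 5 labelled KO, 22 members rose and 4 fell, where 52.7% of all genes tested were called. At 14 days 33 members were tested, of which 12 rose and 2 fell, where 44.2% of all genes tested were called, 21.8% as higher and 22.4% as lower. The split there was 4 higher of 12 MMPs, 6 higher and 1 lower of 17 ADAMTS genes, and 2 higher and 1 lower of the 4 TIMPs. The members that did not pass the filter had to be low in both groups, so these counts leave out silent genes. A member near 0 in the controls could be tested only where libraries labelled KO were higher, so its direction was largely set in advance. Among the calls this holds for Adamts4, Adamts20, Mmp8, Mmp12, Mmp24 and Mmp25 at 7 days and Adamts16 at 14 days. The splits and medians above therefore lean toward higher. Scaling by total counts moved the median of all genes to 0.45 at 7 days and 0.39 at 14 days. Calls were still counted against 0 and not against that shifted median. They came to 24 members higher and 2 lower at 7 days and 18 higher and 1 lower at 14 days. Of all genes tested, 63.6% were called under that scaling at 7 days and 59.4% at 14 days. That scaling also took the share of higher genes among all called to 83.5% at 7 days, from 52.0% with TMM, and to 81.9% at 14 days, from 49.4%.

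**Figure D2:**
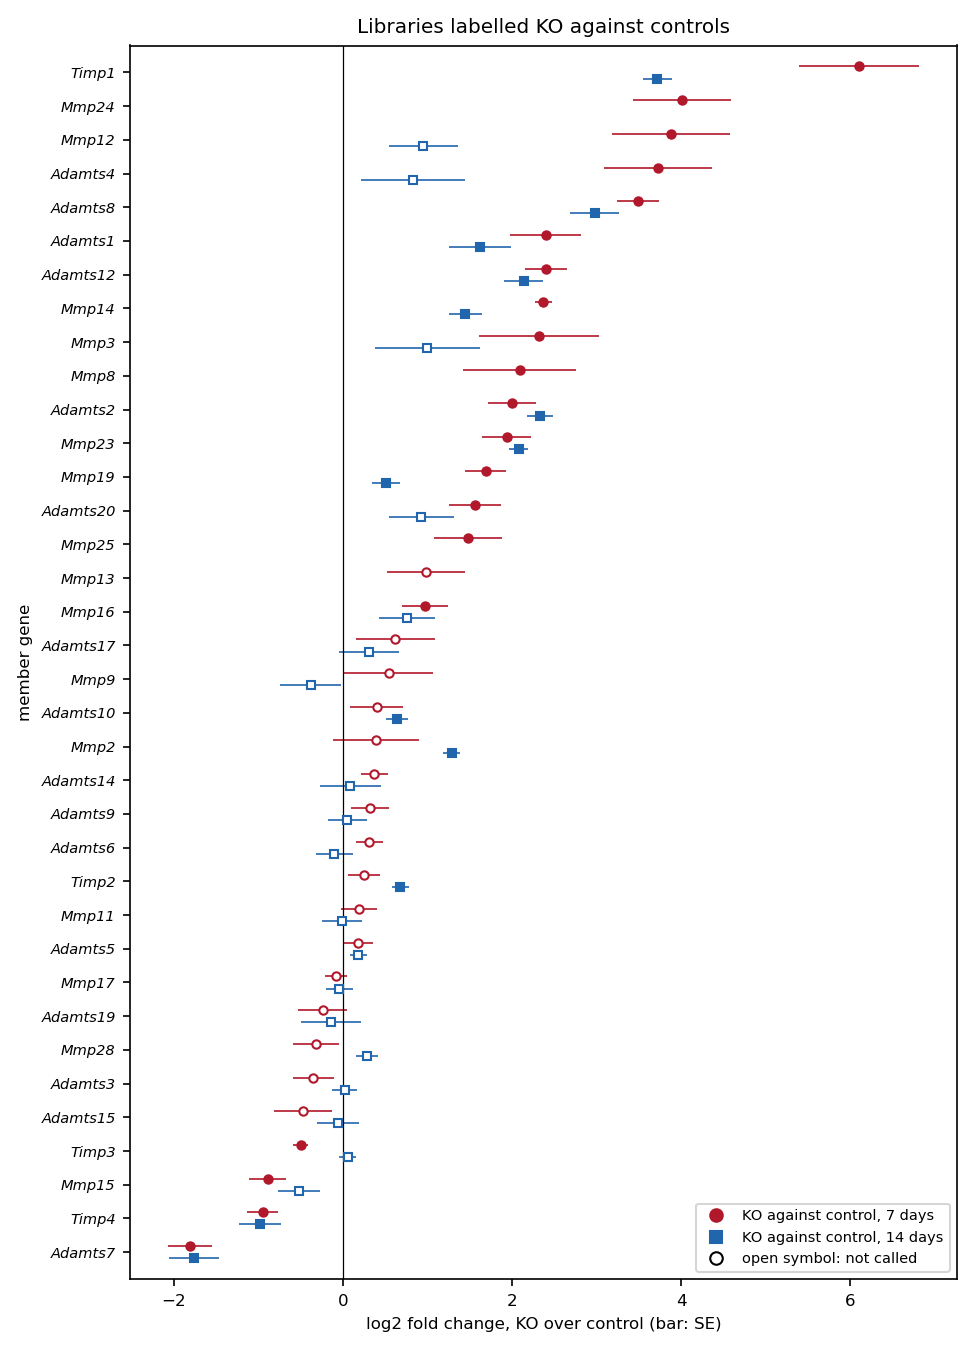
Log2 fold change of each tested member in libraries labelled KO over controls (horizontal axis) at 7 days (circles) and 14 days (squares), with SE as bars and open symbols for members that were not called. Timp1 is at the top with 6.11 at 7 days and 3.72 at 14 days, and Adamts7 at the bottom with -1.81 and -1.76. Adamts16, at 0 in all P60 controls, is left out.

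Of the MMPs, Mmp14, Mmp19 and Mmp23 rose at both times, while Mmp15 fell at 7 days and Mmp17, which is anchored in the membrane, was called at neither time. Mmp14 (MT1-MMP) stood at 50.7, 62.9, 56.8, 47.7 and 53.0 CPM in the libraries labelled KO at 7 days, against 9.95, 11.1, 10.1 and 10.4 CPM in the controls. The groups did not overlap, and the SE was the smallest of the MMPs tested, with a log2 fold change of 2.37 ± 0.10 (adjusted p = 6.8e-07). At 14 days Mmp14 stood at 29.8, 23.7, 30.3 and 45.4 CPM in the libraries labelled KO, against 12.1, 12.2 and 10.5 CPM in the controls (1.45 ± 0.20, adjusted p = 0.00027). Mmp23, a small membrane-anchored MMP, rose at both times. It stood at 21.8, 53.1, 35.7, 44.0 and 19.0 CPM in the libraries labelled KO at 7 days, against 8.39 to 9.80 CPM in the controls (1.94 ± 0.29, adjusted p = 0.00032). After 14 days it stood at 43.2 to 49.5 CPM in the libraries labelled KO, against 9.72 to 11.3 CPM in the controls (2.08 ± 0.11, adjusted p = 6.3e-07).

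Mmp2 lay on both sides of its controls at 7 days. It stood at 52.3, 293, 85.3, 228 and 45.0 CPM in libraries 1 to 5 labelled KO, against 97.9, 110, 113 and 100 CPM in the controls, and was not called (log2 fold change 0.39 ± 0.51, adjusted p = 0.54). Libraries 2 and 4 lay above every control and libraries 1, 3 and 5 below every control. Across the same libraries, Mbnl1 and Timp1 were lowest in libraries 2 and 4. Reads counted for Esr1, the estrogen receptor gene, stood at 234, 1905, 651, 1671 and 193 CPM, against at most 1.49 CPM in the P60 controls. The source of these reads was not tested. Summed fibroblast markers were 2818, 5123, 4019, 4444 and 2766 CPM in libraries 1 to 5 labelled KO, against 2670 to 3289 CPM in the controls. The part of these differences in the spread of Mmp2 was not tested. At 14 days Mmp2 rose, with 267, 307, 329 and 277 CPM in the libraries labelled KO, against 125, 112 and 119 CPM in the controls (1.29 ± 0.10, adjusted p = 6e-06), and Esr1 was at 1672 to 1983 CPM in all 4 libraries labelled KO. Every library labelled KO thus lay far above every P60 control in Esr1. In the knockout comparisons, a difference that goes with these reads cannot be told apart from loss of MBNL1.

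Mmp15, which like Mmp14 is a membrane-type enzyme, fell at 7 days. It stood at 95.6, 186, 100, 157 and 83.2 CPM in the libraries labelled KO, against 209, 247, 221 and 234 CPM in the controls (log2 fold change -0.89 ± 0.22, adjusted p = 0.0062), and with total count scaling the value was -0.47 and not called. At 14 days the groups overlapped, at 112, 114, 244 and 165 CPM in the libraries labelled KO against 191, 206 and 273 CPM in the controls (-0.52 ± 0.25, adjusted p = 0.12). Mmp19, a secreted MMP, stood at 11.9, 6.73, 13.0, 7.64 and 12.7 CPM in the libraries labelled KO at 7 days, against 2.65 to 3.82 CPM in the controls (1.69 ± 0.24, adjusted p = 0.00023). After 14 days it stood at 4.14 to 4.89 CPM in the libraries labelled KO, against 2.73 to 3.61 CPM in the controls (0.51 ± 0.17, adjusted p = 0.032), a call lost without KO library 6 (adjusted p = 0.056) or 7 (0.071) without control library 6 (0.088) or 7 (0.11), without the low-count filter (0.065) and in the single fit of all libraries (0.14). Of its exon bases, 28.3% are shared with genes on the other strand. Mmp16, Mmp24 and Mmp25, also membrane-bound, rose at 7 days and were low. Mmp16 was at 1.17 to 2.16 CPM in the libraries labelled KO, against 0.475 to 1.05 CPM in the controls (0.97 ± 0.27, adjusted p = 0.013), and Mmp25 was at 0.447 to 0.933 CPM against 0.0593 to 0.387 CPM (1.48 ± 0.40, adjusted p = 0.010). Neither pair of groups overlapped. Mmp24 stood at 2.18, 0.856, 1.38, 0.939 and 2.11 CPM in the libraries labelled KO, against 0.181, 0.110, 0.0554 and 0 CPM in the controls (4.01 ± 0.58, adjusted p = 0.00028), with a log2 fold change of 4.60 without control library 1. Since 13.6% of its exon bases overlap BC029722 on the other strand, its value is uncertain.

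**Figure D3:**
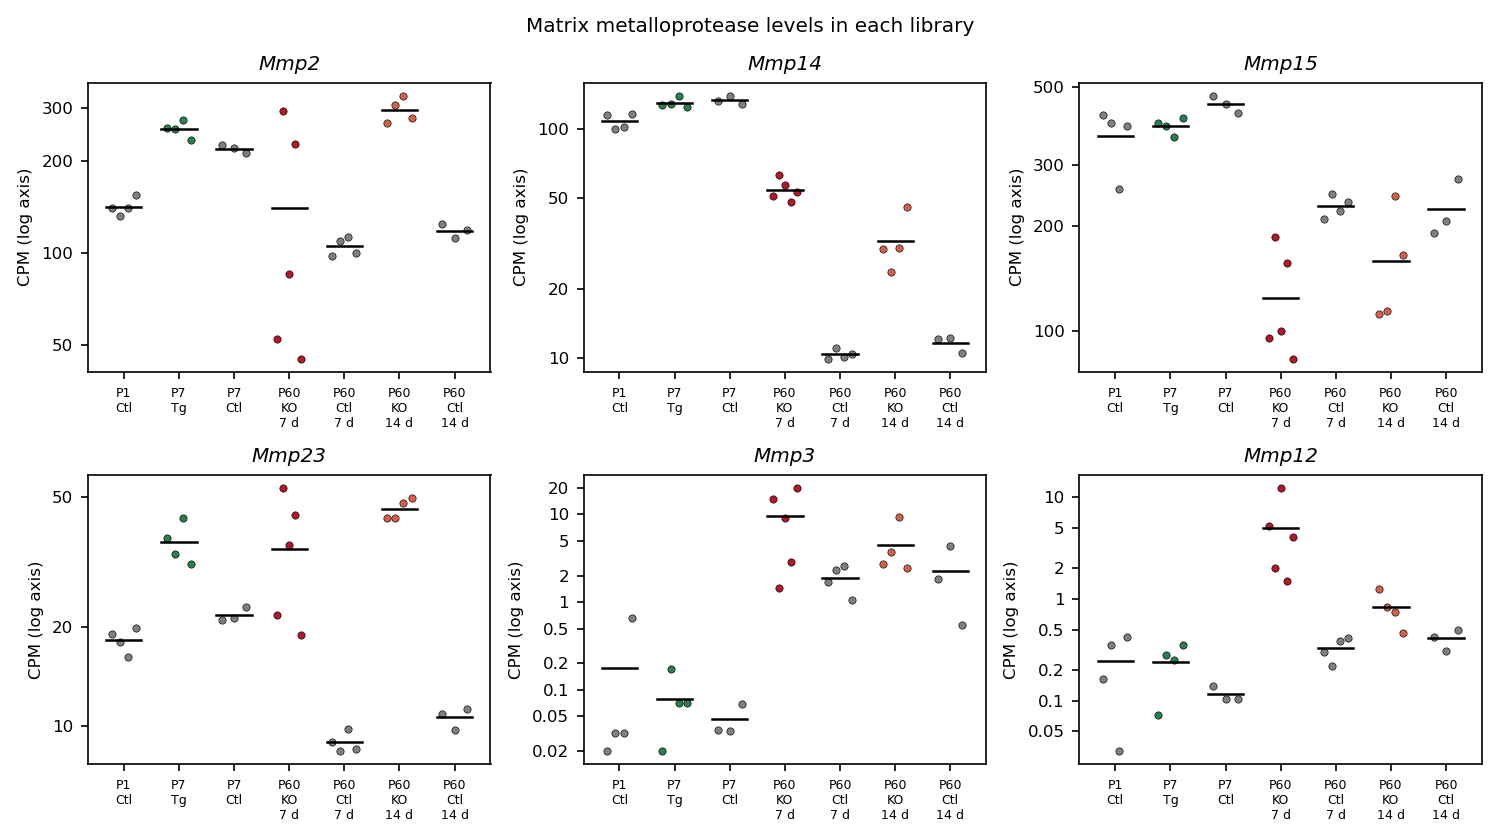
Levels of 6 MMP genes in each library, in CPM on a log axis, by group; points are libraries, bars are group means, and a value of 0 is drawn at 0.02. Mmp14 lies at 47.7 to 62.9 CPM in the libraries labelled KO at 7 days, against 9.95 to 11.1 CPM in their controls, whereas Mmp2 spans 45.0 to 293 CPM in those libraries, on both sides of the controls at 97.9 to 113 CPM.

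The stromelysin, collagenase and elastase genes Mmp3, Mmp8, Mmp12 and Mmp13, known for their induction by inflammatory signals, lie with Mmp1a, Mmp1b, Mmp7, Mmp10, Mmp20 and Mmp27 in a cluster of 10 genes at chr9:7272514-7699585 (GRCm38). The cluster is shown by promoter because most of its members share a feature that was not used to choose them. The AP-1 motif TGANTCA, searched on both strands from 250 bases before to 50 after the start in RefSeq promoters (GRCm38.p6), was in the windows of 8 of the 10 cluster genes and of 0 of the 22 other members with a window. The windows of Mmp8 and Mmp27 and the first window of Mmp12 held no match. Of all 32851 windows, 7.81% held the motif. The PEA3 motif AGGAAG was in 45.7% of the 35 member windows, against 35.4% of all windows. The core promoter motif TATAAA was in 31.4% of member windows, against 13.6% of all windows. Counted from the RefSeq start, the first base of TATAAA lay at -29 in Mmp10, -16 in Mmp13, -7 in Mmp3 and 4 in the second window of Mmp12. Below are these 4 examples from the plus strand, from 110 bases before to 20 after the start, with AP-1 and TATAAA matches in capitals. They lie at chr9:7445712-7445841 for Mmp3, chr9:7347264-7347393 for the second window of Mmp12, chr9:7272404-7272533 for Mmp13 and chr9:7502232-7502361 for Mmp10.
Mmp3: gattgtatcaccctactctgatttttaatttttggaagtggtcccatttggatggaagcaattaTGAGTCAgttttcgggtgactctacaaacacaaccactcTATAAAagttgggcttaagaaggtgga
Mmp12: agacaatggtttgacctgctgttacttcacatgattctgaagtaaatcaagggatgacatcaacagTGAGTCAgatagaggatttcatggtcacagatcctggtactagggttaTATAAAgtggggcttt
Mmp13: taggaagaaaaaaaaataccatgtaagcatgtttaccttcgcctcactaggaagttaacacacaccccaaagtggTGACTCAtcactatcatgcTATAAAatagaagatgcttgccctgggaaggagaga
Mmp10: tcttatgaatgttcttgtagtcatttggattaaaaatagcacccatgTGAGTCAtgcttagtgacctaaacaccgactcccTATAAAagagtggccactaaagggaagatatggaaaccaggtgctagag
A match in letters describes the window and is not evidence of binding.

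In expression the cluster was low and uneven. Mmp3 (stromelysin-1), beside the AP-1 match shown above, stood at 15, 1.44, 9.03, 2.86 and 19.9 CPM in libraries 1 to 5 labelled KO at 7 days, against 1.69, 2.32, 2.55 and 1.07 CPM in the controls. The groups overlapped, since library 2 lay among the controls. The log2 fold change of 2.32 ± 0.71 (adjusted p = 0.018) was not called without libraries 1 and 5 (1.2, adjusted p = 0.092), without control library 1 (adjusted p = 0.051) or 4 (0.054), or with replicate number as a block (1.5, adjusted p = 0.064). Mmp12 (macrophage elastase) stood at 5.20, 2.02, 12.3, 1.51 and 4.03 CPM in the libraries labelled KO, against 0.221 to 0.415 CPM in the controls (3.88 ± 0.70, adjusted p = 0.0011). The groups did not overlap, and without library 3 the value was 3.24. At 14 days Mmp12 was at 0.465 to 1.26 CPM in the libraries labelled KO, against 0.312 to 0.491 CPM in the controls, and was not called (adjusted p = 0.081). Of 10 macrophage markers 9 rose at 7 days, with a summed level of 1140 to 1632 CPM in the libraries labelled KO against 444 to 524 CPM in the controls, and 8 rose at 14 days, at 711 to 1060 CPM against 365 to 562 CPM. Their part in Mmp12 was not tested.

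Mmp8 (neutrophil collagenase) stood at 1.93, 0.506, 1.59, 0.286 and 2.23 CPM in the libraries labelled KO at 7 days, against 0.181, 0.441, 0.443 and 0.119 CPM in the controls (log2 fold change 2.09 ± 0.67, adjusted p = 0.023). Library 4 lay among the controls, and the call was lost without control library 1 or 4 (adjusted p = 0.065 in each case). Of 10 neutrophil markers, 4 could be tested and 1 rose. Their summed level was 8.09 to 20.4 CPM in the libraries labelled KO, against 2.83 to 10.2 CPM in the controls, where Elane and Mpo were at 0. Their part in Mmp8 was not tested. Mmp13 (collagenase-3) was at 0.408 to 0.854 CPM in the libraries labelled KO at 7 days, against 0.111 to 0.662 CPM in the controls, and was not called (adjusted p = 0.10). Mmp10, whose window is also shown, had counts only in libraries labelled KO, at no more than 0.168 CPM. Outside the cluster, Mmp9 (gelatinase B) was at 0.467 to 2.74 CPM at 7 days in the libraries labelled KO, against 0.603 to 1.10 CPM in the controls (0.54 ± 0.53, adjusted p = 0.42).

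Of the ADAMTS proteases that cleave versican and aggrecan, Adamts1 and Adamts8 rose at both times and Adamts4 and Adamts20 were called at 7 days, whereas Adamts5, Adamts9 and Adamts15 were called at neither time. Adamts1 stood at 437, 95.6, 285, 117 and 285 CPM in libraries 1 to 5 labelled KO at 7 days, against 37.3, 50.2, 47.4 and 48.1 CPM in the controls (log2 fold change 2.40 ± 0.42, adjusted p = 0.00086). All 5 lay above the controls, with libraries 2 and 4 the lowest. At 14 days Adamts1 stood at 290, 214, 69.1 and 165 CPM in the libraries labelled KO, against 64.6, 59.8 and 51.0 CPM in the controls (1.62 ± 0.37, adjusted p = 0.0055). Adamts8 stood at 21.1, 15.5, 18.1, 13.6 and 18.5 CPM in the libraries labelled KO at 7 days, against 0.844, 2.32, 1.55 and 1.36 CPM in the controls (3.49 ± 0.25, adjusted p = 6.2e-06), and at 14 days it stood at 10.8 to 21.0 CPM against 1.36 to 2.08 CPM (2.98 ± 0.29, adjusted p = 2.4e-05). The groups of Adamts8 did not overlap at either time, and 10.6% of its exon bases are shared with Gm29724 on the other strand.

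Adamts4, known as aggrecanase-1, stood at 5.24, 0.778, 3.58, 1.92 and 5.24 CPM in the libraries labelled KO at 7 days, against 0.166 to 0.415 CPM in the controls (log2 fold change 3.73 ± 0.64, adjusted p = 0.00079). The groups did not overlap, and without libraries 1 and 5 the value was 3.05. At 14 days they overlapped, at 1.59, 1.72, 0.460 and 3.38 CPM in the libraries labelled KO against 0.857, 1.68 and 0.436 CPM in the controls (0.83 ± 0.61, adjusted p = 0.30). The controls of 14 days were themselves above those of 7 days. Adamts20 was at 0.980 to 1.80 CPM in the libraries labelled KO at 7 days, against 0.331 to 0.554 CPM in the controls (1.56 ± 0.31, adjusted p = 0.0018). Adamts5 (aggrecanase-2) was at 19.5 to 37.5 CPM in the libraries labelled KO at 7 days, against 23.7 to 30.6 CPM in the controls, and the groups overlapped (0.18 ± 0.18, adjusted p = 0.45).

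Of the enzymes that remove the N-propeptide of fibrillar procollagens, Adamts2 rose and Adamts3 and Adamts14 were not called. Adamts2 stood at 106, 279, 156, 223 and 112 CPM in libraries 1 to 5 labelled KO at 7 days, against 43.6, 41.9, 48.7 and 38.2 CPM in the controls (log2 fold change 2 ± 0.28, adjusted p = 0.00022). Here libraries 2 and 4 were the highest, the reverse of Adamts1. After 14 days Adamts2 stood at 199, 177, 210 and 229 CPM in the libraries labelled KO, against 36.1, 33.8 and 48.7 CPM in the controls (2.33 ± 0.15, adjusted p = 1.6e-06). Adamts3 was at 2.97 to 7.03 CPM at 7 days in the libraries labelled KO, against 5.43 to 7.31 CPM in the controls (-0.35 ± 0.24, adjusted p = 0.25).

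Adamts7 and Adamts12, related enzymes that cleave cartilage oligomeric matrix protein (COMP), moved in opposite directions. Adamts7 stood at 7.05, 17.1, 11.1, 14.0 and 7.58 CPM in the libraries labelled KO at 7 days, against 37.7, 37.8, 51.9 and 30.7 CPM in the controls (log2 fold change -1.81 ± 0.26, adjusted p = 0.00024). In the later samples it stood at 8.81, 8.07, 16 and 10.4 CPM in the libraries labelled KO, against 22.8, 30.6 and 54.5 CPM in the controls (-1.76 ± 0.30, adjusted p = 0.00093). The groups did not overlap at either time, and no alternative setting ended these calls. Adamts12 stood at 6.79, 9.99, 14.9, 12.4 and 7.62 CPM in the libraries labelled KO at 7 days, against 1.71 to 2.11 CPM in the controls (2.40 ± 0.25, adjusted p = 3.7e-05). At 14 days it stood at 5.85 to 11 CPM in the libraries labelled KO, against 1.75 to 2.14 CPM in the controls (2.14 ± 0.23, adjusted p = 5.2e-05). All 9 libraries labelled KO thus lay below every P60 control for Adamts7 and above every one for Adamts12.

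Adamts16 had no count in any of the 7 P60 controls. It stood at 0.210, 2.53, 1.22, 2.33 and 0.0391 CPM in libraries 1 to 5 labelled KO at 7 days, where it did not pass the filter, and at 0.699, 0.529, 0.794 and 0.888 CPM in those of 14 days, where it was called (adjusted p = 0.00033). Libraries 2 and 4 were again the highest at 7 days. Against a floor of 3 counts per library, the means were at least 7.33-fold higher at 7 days and at least 4.09-fold higher at 14 days. Adamts10, which acts in fibrillin microfibrils, rose at 14 days, at 53.2 to 72.2 CPM in the libraries labelled KO against 34.5 to 43.9 CPM in the controls (log2 fold change 0.64 ± 0.13, adjusted p = 0.0030), though not in the single fit of all libraries (adjusted p = 0.051). At 7 days it was at 24.4, 79.1, 56.2, 72.3 and 31.4 CPM in the libraries labelled KO, against 32.4 to 44.2 CPM in the controls, and was not called (adjusted p = 0.31). Adamts6, Adamts17 and Adamts19 were called at neither time, nor were Mmp9, Mmp11, Mmp17 and Mmp28 among the MMPs. Adamts13, which cleaves von Willebrand factor and is made mainly in liver, did not pass the filter in the knockout comparisons.

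**Figure D4:**
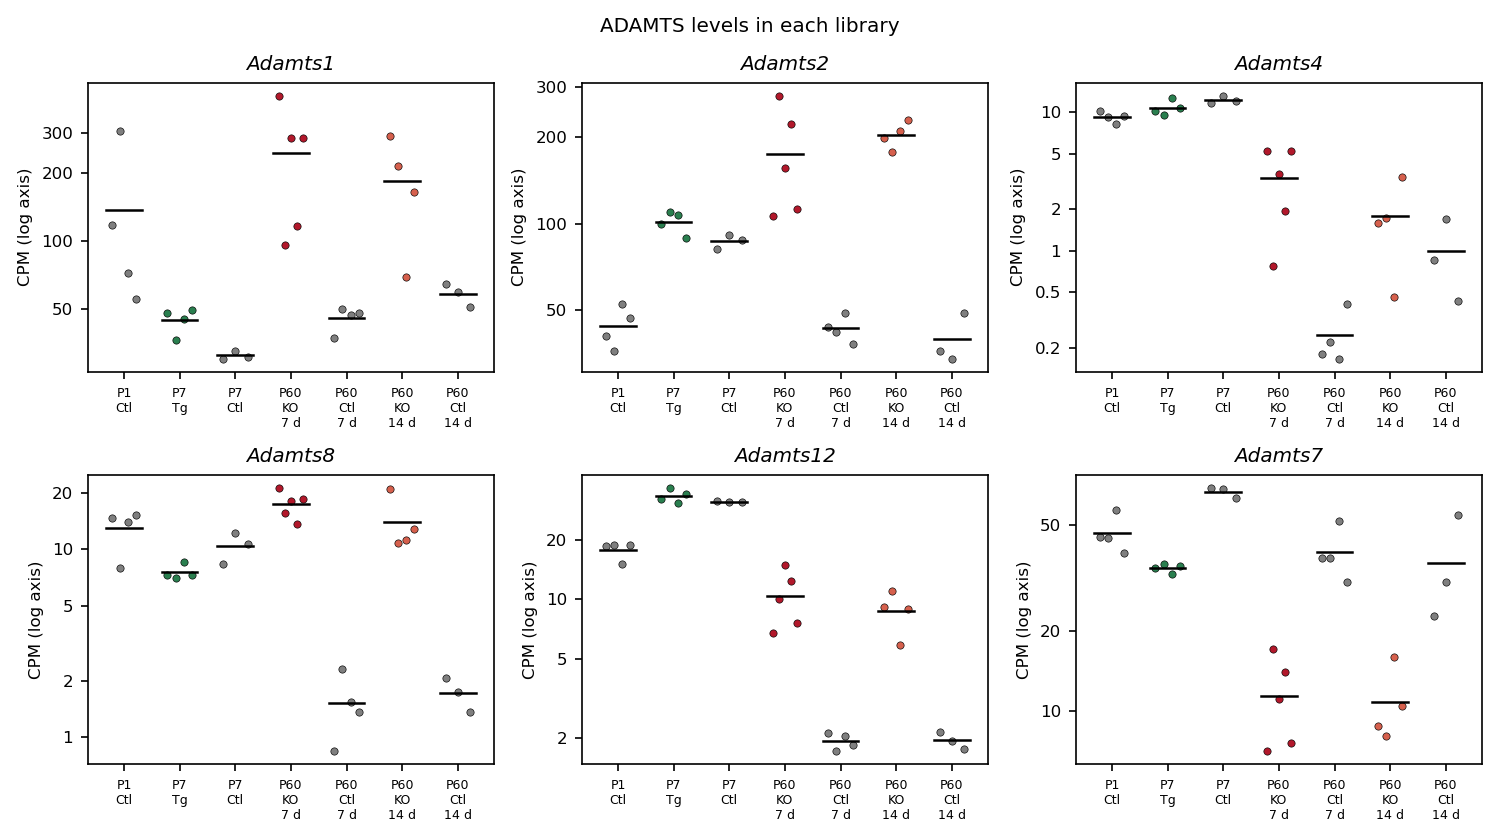
Levels of 6 ADAMTS genes in each library, in CPM on a log axis, by group; points are libraries and bars are group means. Adamts7 lies at 7.05 to 17.1 CPM in the libraries labelled KO at 7 days, against 30.7 to 51.9 CPM in their controls, and Adamts12 at 6.79 to 14.9 CPM, against 1.71 to 2.11 CPM.

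The fits at 7 and 14 days share no library. Of the members that rose, 8 were called at both times (Timp1, Mmp14, Mmp19, Mmp23, Adamts1, Adamts2, Adamts8 and Adamts12), which is 50% of those at 7 days and 66.7% of those at 14 days. Over all genes tested, those higher at both times were 63.6% of the genes higher at 7 days and 77.8% of those higher at 14 days, so the shares of the members were no larger. Adamts7 and Timp4 fell at both times. Whether the response differed between the times was tested in a fit of the 16 P60 libraries with an interaction term, in which 0 of 37 members and 0% of all 15951 genes were called. At an unadjusted p under 0.05 there were 6 of the 37 members, beside 1662 of all 15951 genes. The lowest adjusted p among members was that of Timp3 (difference of log2 fold changes, 14 days minus 7 days, 0.59 ± 0.14, adjusted p = 0.16), followed by Mmp14 (-0.89 ± 0.22, adjusted p = 0.18) and Mmp19 (-1.16 ± 0.31, adjusted p = 0.21). DESeq2 called these 3 members, with adjusted p of 0.013 for Timp3, 0.034 for Mmp14 and 0.049 for Mmp19. It called 0.928% of all genes tested. The difference for Timp1 was -2.37 ± 0.79 (adjusted p = 0.29) and that for Mmp2 was 0.92 ± 0.62 (adjusted p = 0.63).

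Genes around these proteases were counted by list, without a set test. Of all genes tested, 50.7% were called at 7 days and 44.2% at 14 days. Those called higher were 26.4% and 21.8%, and those called lower 24.3% and 22.4%. At 7 days the calls in the plasminogen list and in the astacin list were, in total, near the share of all genes. Of 10 genes of the plasminogen system and of proprotein convertases, which act on MMP activation, 8 were tested; 4 rose at 7 days and 5 at 14 days, and none fell. Pcsk5, a proprotein convertase, had log2 fold changes of 1.32 ± 0.25 at 7 days and 1.54 ± 0.16 at 14 days. Of 16 matrix genes that encode substrates of these proteases, 14 were tested, and 10 rose at 7 days and 13 at 14 days, with medians of 1.88 and 2.14. Among them were Col1a1 at 3.23 ± 0.29 and Fn1 (fibronectin) at 3.21 ± 0.30 at 7 days, and Comp, the substrate of ADAMTS7 and ADAMTS12, at 2.89 ± 0.29 at 14 days. Of 8 ADAM proteases, the membrane-bound relatives of ADAMTS, 5 rose at 7 days and 4 at 14 days, led by Adam12 at 4.66 ± 0.51 and 1.52 ± 0.42. Of 7 ADAMTS-like proteins, which carry no protease domain, 3 rose and 2 fell at 7 days and 3 rose and 1 fell at 14 days. Of 14 astacin, serine and cysteine proteases with their cofactors, 5 rose and 2 fell at 7 days and 6 rose and 2 fell at 14 days. Of 13 other inhibitors and cell surface partners, 11 were tested, and 5 rose and 2 fell at 7 days and 4 rose and 1 fell at 14 days.

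Markers of other cells were counted in the same way, beside the same shares of all genes. Summed activated fibroblast markers were 1978 to 4028 CPM in the libraries labelled KO at 7 days, against 303 to 355 CPM in the controls, with 6 of 8 called higher. At 14 days they were 1822 to 2664 CPM in the libraries labelled KO, against 289 to 483 CPM in the controls, again with 6 of 8 called higher. Endothelial markers fell, 6 of 10 at 7 days and 5 of 10 at 14 days. Of 9 smooth muscle and pericyte markers, 3 rose and 4 fell at 7 days and 3 rose and 2 fell at 14 days. Mesothelial markers summed to 9.07 to 29.3 CPM in the libraries labelled KO at 7 days, against 5.49 to 10.5 CPM in the controls, and mast cell markers to 4.33 to 8.05 CPM, against 2.98 to 5.61 CPM. The part of these markers in the changes of the proteases and TIMPs was not tested.

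In controls, most ADAMTS and MMP genes tested were lower in the adult than in the young ventricle and 2 TIMPs were higher. The 3 comparisons of ages use the same 14 control libraries, and the P60 controls also serve the knockout comparisons. Between P7 and P60, 35 members were tested, of which 4 were higher and 25 lower at P60, where 69.3% of all genes tested were called, 33.3% as higher and 36% as lower. The members' median log2 fold change was -1.08, against -0.05 over all genes tested. By family, 16 of 18 ADAMTS genes fell and none rose, 7 MMPs fell and 2 rose of 13, and 2 TIMPs fell and 2 rose. A member near 0 in the P60 controls could be tested only through the young libraries, so its fall was largely set in advance. Against P7 and P1 this holds for Adamts4, Adamts13, Adamts16, Adamts20 and Mmp25. Mmp3 likewise passed the filter through P60 and Mmp8 through P1. The split and the median between P7 and P60 therefore lean toward lower. Total count scaling, which moved the median of all genes to -0.65 and the share of higher genes among all called to 18%, from 48.1% with TMM, gave 3 higher and 28 lower members. It called 79.7% of all genes tested. Between P1 and P7, 9 members were higher and 5 lower at P7 of 35 tested, where 23.5% of all genes tested were called, 12.3% as higher and 11.2% as lower. With total count scaling, 9 members were higher and 7 lower, where 24% of all genes tested were called. The share of higher genes among all called was then 41.0%, from 52.4% with TMM. Between P1 and P60, 7 were higher and 22 lower at P60 of 35 tested, where 73.7% of all genes tested were called, 35.1% as higher and 38.6% as lower. With total count scaling 4 were higher and 29 lower, where 84.1% of all genes tested were called. The share of higher genes among all called was then 19.3%, from 47.6% with TMM.

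Timp4 and Timp3 were the inhibitors that rose between P7 and P60, while Timp2 was still the highest TIMP per kilobase in the P60 controls. Timp4 stood at 9.43, 4.91, 25.5 and 6.04 CPM at P1, at 4.84, 4.30 and 3.91 CPM at P7, and at 71.1 to 102 CPM with a median of 82.1 CPM in the P60 controls. P60 lay above every young library, with a log2 fold change against P7 of 4.25 ± 0.45 (adjusted p = 9.5e-07). The fall between P1 and P7 (-1.41 ± 0.44, adjusted p = 0.032) was -0.65 without P1 library 3 and was not called when any one of the P7 libraries was left out (adjusted p of up to 0.10). Timp3 stood at 149, 160, 140 and 85.3 CPM at P1, at 69.7, 82.2 and 67.6 CPM at P7, and at 239 to 326 CPM with a median of 276 CPM at P60 (P60 against P7, 1.89 ± 0.16, adjusted p = 7.1e-08). P7 was thus the low point of Timp3, with a log2 fold change against P1 of -0.87 ± 0.16 (adjusted p = 0.0013). Timp1 moved the other way, at 7.67 to 22.4 CPM at P1, 9.46 to 11.9 CPM at P7 and 2.31 to 3.59 CPM at P60 (P60 against P7, -1.94 ± 0.27, adjusted p = 1.6e-05). Timp2 was at 175 to 229 CPM at P1, 269 to 283 CPM at P7 and 202 to 245 CPM at P60, and its call as higher at P60 against P1 (0.19 ± 0.08, adjusted p = 0.038) turned to -0.47 with total count scaling.

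Of the MMPs tested, Mmp14 had the steepest fall between P7 and P60. It stood at 114, 99.1, 102 and 116 CPM at P1, at 132, 139 and 128 CPM at P7, and at 9.95 to 12.2 CPM with a median of 10.5 CPM at P60 (P60 against P7, -3.61 ± 0.07, adjusted p = 6.6e-14). The level of 47.7 to 62.9 CPM in the libraries labelled KO at 7 days therefore lay between the P60 controls and the young libraries. Mmp2 peaked at P7, with 132 to 155 CPM at P1, 214 to 226 CPM at P7 and 97.9 to 125 CPM at P60 (-0.99 ± 0.07, adjusted p = 8.3e-09). Mmp15 stood at 255 to 417 CPM at P1, 421 to 473 CPM at P7 and 191 to 273 CPM at P60 (-0.99 ± 0.13, adjusted p = 6.7e-06). Mmp3 was nearly silent before P60, at 0 to 0.656 CPM at P1 and 0.0344 to 0.0697 CPM at P7, and stood at 0.546 to 4.36 CPM at P60 (5.32 ± 1.06, adjusted p = 0.00039). Because Mmp3 passed the low-count filter only through P60, the direction of its calls was largely set in advance. Its log2 fold change between P1 and P60 was 3.48, and without P1 library 4, the highest of that age, it was 6.25. Mmp8 was at 0.0696, 0.206 and 0.174 CPM at P7, against 1.13, 0.257, 1.82 and 0.394 CPM at P1, a log2 fold change of -2.55 ± 0.68 (adjusted p = 0.014) that was not called without P7 library 1 (adjusted p = 0.067). Since Mmp8 passed the filter only through P1, the direction of its fall was largely set in advance too. Of 7 neutrophil markers tested, 6 fell with Mmp8, at a summed level of 1.95 to 2.58 CPM at P7, against 7.28 to 17 CPM at P1, and their part in the result was not tested. Mmp25, a GPI-anchored MMP, fell at P60 against P7 (-3.31 ± 0.38, adjusted p = 1.8e-06), a direction largely set in advance by the low-count filter. Mmp19 was called as higher at P60 (0.90 ± 0.28, adjusted p = 0.010), but not with total count scaling (0.30) or without P7 library 3 (0.75, adjusted p = 0.055). Mmp17, another GPI-anchored MMP, rose between P1 and P7 (1.14 ± 0.13, adjusted p = 2.1e-05), at 2.10 to 2.33 CPM at P1, 4.73 to 5.37 CPM at P7 and 3.80 to 5.81 CPM at P60.

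Several ADAMTS genes were close to 0 at P60, and for Adamts4, Adamts13 and Adamts16 the direction was largely set in advance by the low-count filter. Adamts13 was at 0.230 to 0.777 CPM at P1, 0.279 to 0.452 CPM at P7, and at 0 in the P60 controls except for 1 count in a single library (P60 against P7, adjusted p = 0.00011). Adamts4 stood at 8.25 to 10.2 CPM at P1, 11.6 to 13.1 CPM at P7 and 0.166 to 1.68 CPM at P60 (P60 against P7, -4.63 ± 0.24, adjusted p = 5.2e-10). Adamts12 stood at 15 to 18.9 CPM at P1, 30.9 to 31.4 CPM at P7 and 1.71 to 2.14 CPM at P60 (-4.01 ± 0.09, adjusted p = 4.3e-13). The highest library labelled KO at 7 days, at 5.24 CPM for Adamts4 and 14.9 CPM for Adamts12, lay below every young library in both genes, for Adamts12 just below the lowest of P1. Adamts17 stood at 6.5 to 14.3 CPM at P1, 18.1 to 20.9 CPM at P7 and 0.554 to 1.96 CPM at P60 (-4.05 ± 0.22, adjusted p = 8.5e-10). Adamts19 stood at 14.2 to 23.4 CPM at P1, 16 to 18.1 CPM at P7 and 0.918 to 2.05 CPM at P60 (-3.54 ± 0.18, adjusted p = 5.9e-10), and neither gene was called in libraries labelled KO. Adamts6 fell at each step, at 27.3 to 36.8 CPM at P1, 13.8 to 17.7 CPM at P7 and 3.05 to 5.62 CPM at P60. Adamts16 was at 0.417 to 0.585 CPM at P7, and its mean of 0.497 CPM was at least 2.84-fold above the floor of the P60 controls, where it was at 0. Adamts15 rose between P1 and P7 (1.31 ± 0.27, adjusted p = 0.0030), at 9.94 to 11.9 CPM at P1, 25 to 28 CPM at P7 and 5.99 to 19.1 CPM at P60, where it was lower than at P7 (-1.47 ± 0.24, adjusted p = 6.8e-05). Adamts14 was at 12.6 to 17 CPM at P1, 11 to 12.6 CPM at P7 and 1.58 to 3.5 CPM at P60 (P60 against P7, -2.20 ± 0.14, adjusted p = 6.3e-09). Of the 18 ADAMTS genes tested, Adamts1 and Adamts5 were without a call between P7 and P60. Adamts1 stood at 118, 304, 72.5 and 55.5 CPM at P1, at 30.3 to 32.8 CPM at P7 and at 37.3 to 64.6 CPM at P60. The fall of Adamts1 between P1 and P7 (-2.13 ± 0.43, adjusted p = 0.0025) was -1.39 without P1 library 2.

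Of the marker lists, all 10 macrophage markers and all 8 cardiomyocyte markers were higher at P60 than at P7, and 7 of 8 activated fibroblast markers were lower. Summed activated fibroblast markers ran from 1436 to 2165 CPM at P1 and from 1779 to 1896 CPM at P7, and from 289 to 483 CPM in the P60 controls. Of the 15 matrix substrate genes tested, 11 fell and 3 rose at P60 against P7, with a median of -2.15. Their part in the age differences of the proteases was not tested.

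In the ventricles labelled Tg at P7, 32 members were tested, of which 7 rose and 10 fell, where 30.7% of all genes tested were called, 14.9% as higher and 15.8% as lower. The members' median log2 fold change was -0.09, against 0.00 over all genes tested. Adamts20 and Adamts7 stood apart in size. Adamts20, a versican-cleaving enzyme known from mouse coat-colour mutants, stood at 4.39, 3.34, 8.09 and 3.47 CPM in the libraries labelled Tg, against 0.765, 1.31 and 1.33 CPM in the controls (log2 fold change 2.08 ± 0.32, adjusted p = 0.00037). Every library labelled Tg lay above every control, with library 3 highest. Adamts7 stood at 34.4, 35.6, 32.8 and 35.0 CPM in the libraries labelled Tg, against 69.0, 68.5 and 63.1 CPM in the controls (-0.96 ± 0.05, adjusted p = 1.1e-07). The groups were far apart and each was tight. Adamts7 was thus called lower both with labelled gain and with labelled loss of MBNL1, in comparisons that share no library.

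The other calls in the libraries labelled Tg were of smaller size. Of the proteoglycan-cleaving genes, Adamts1 rose (0.51 ± 0.08, adjusted p = 0.00056) while Adamts15 (-0.64 ± 0.08, adjusted p = 4.2e-05), Adamts8 (-0.47 ± 0.12, adjusted p = 0.0098) and Adamts9 (-0.22 ± 0.05, adjusted p = 0.0037) fell. The groups overlapped for Adamts8, whose call was lost without control library 2 (adjusted p = 0.065). Of the procollagen enzymes, Adamts2 rose (0.22 ± 0.07, adjusted p = 0.037) and Adamts3 fell (-0.43 ± 0.09, adjusted p = 0.0030), and Adamts2 was not called without library 2 or 3 labelled Tg and without control library 1 or 3 (adjusted p of up to 0.14), and its groups overlapped. Adamts6 also fell (-0.55 ± 0.10, adjusted p = 0.0010) and Adamts10 rose (0.28 ± 0.06, adjusted p = 0.0028). Of the MMPs, Mmp23 rose, with 37.4, 33.4, 43.1 and 31.2 CPM in the libraries labelled Tg, against 21.1, 21.4 and 23.0 CPM in the controls (0.73 ± 0.09, adjusted p = 8.8e-05). Mmp2 (0.21), Mmp19 (0.58), Mmp11 (-0.29), Mmp15 (-0.21) and Mmp28 (-0.36) were also called, of which Mmp2 lost its call without control library 3 (adjusted p = 0.059), Mmp15 without control library 1 (0.061), and Mmp19 without library 1 (0.057) or 2 (0.093) labelled Tg or control library 2 (0.094) or 3 (0.14). Without control library 3, 4 members were higher in place of 7, where 25% of all genes tested were called in place of 30.7%. Mmp14, at 124 to 138 CPM in the libraries labelled Tg against 128 to 139 CPM in the controls, was not called (-0.04 ± 0.06, adjusted p = 0.59). Of the TIMPs, Timp1 fell, with 8.20, 6.79, 8.49 and 7.39 CPM in the libraries labelled Tg, against 11.4, 9.46 and 11.9 CPM in the controls (-0.51 ± 0.11, adjusted p = 0.0029).

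In a single fit of all 27 libraries, which shared 1 estimate of the spread, 5.64% of all genes tested were called for the libraries labelled Tg, in place of 30.7%. Among the members, 2 rose and 2 fell, and 13 of the 17 calls were lost, those of Adamts6, Adamts7, Adamts20 and Mmp23 being kept. Of 10 macrophage markers 7 rose in the libraries labelled Tg, with a summed level of 153 to 197 CPM against 93.0 to 121 CPM in the controls, and of 8 fibroblast markers 5 rose, with 3372 to 3894 CPM against 2731 to 3078 CPM. Of 8 activated fibroblast markers 2 rose and 2 fell, and their sum was lower, at 1490 to 1647 CPM against 1779 to 1896 CPM. The part of these markers in the calls of members was not tested. Adamtsl5, an ADAMTS-like protein without protease activity, rose with 1.24 ± 0.09 (adjusted p = 9.2e-07), and Cd44, a cell surface docking protein of MMPs, rose with 0.74 ± 0.08 (adjusted p = 2.3e-05).

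**Figure D5:**
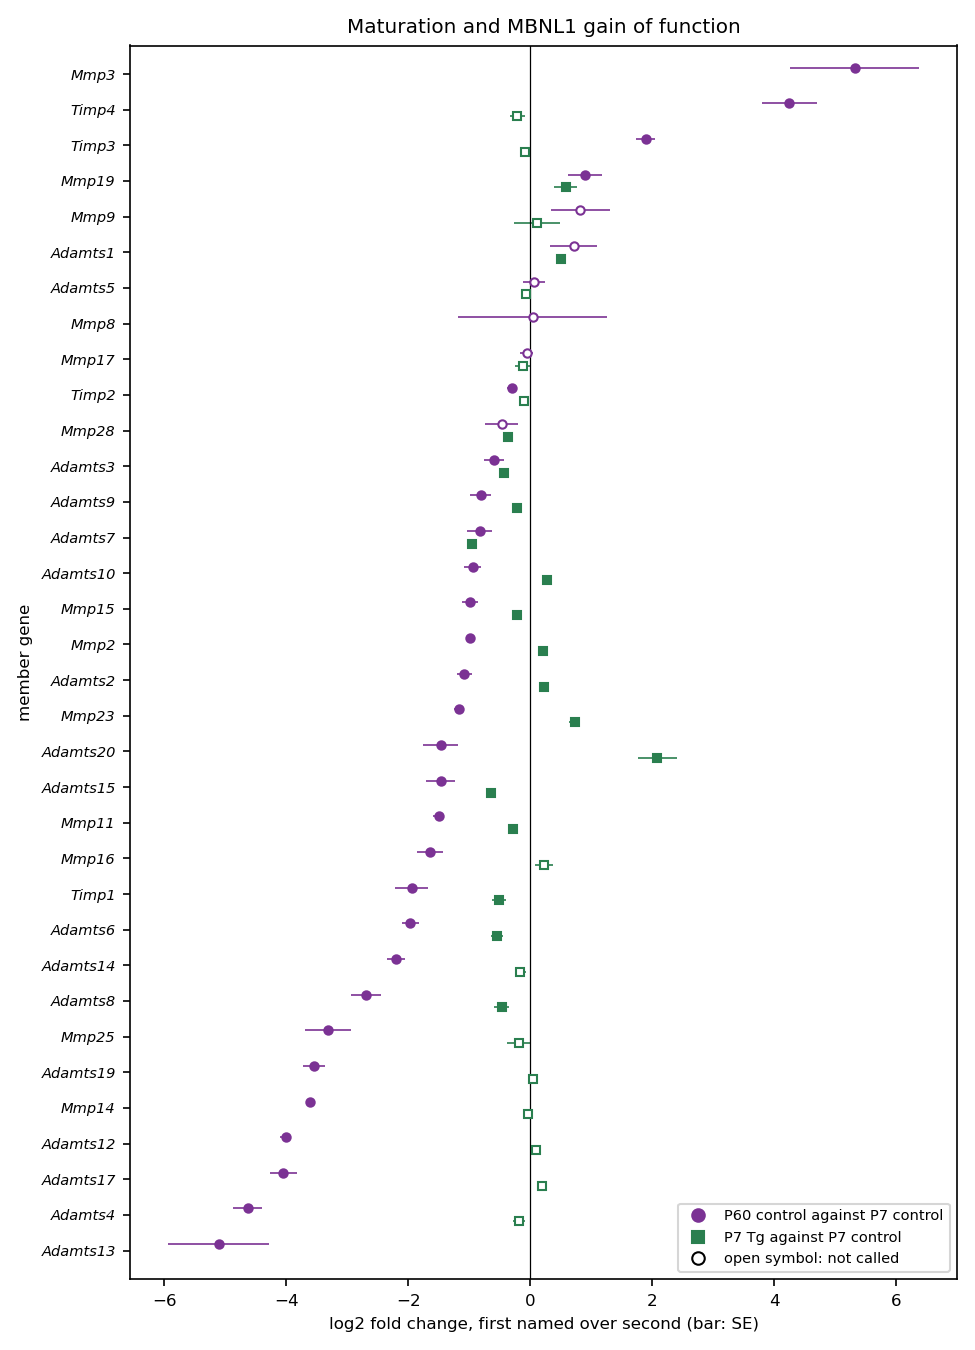
Log2 fold change of each tested member (horizontal axis), with P60 over P7 controls as circles, libraries labelled Tg over P7 controls as squares, SE as bars and open symbols for members that were not called. Adamts4 lies at -4.63 and Timp4 at 4.25 for P60 over P7 controls, and Adamts20 lies at 2.08 and Adamts7 at -0.96 for libraries labelled Tg over P7 controls. Adamts16, at 0 in all P60 controls, is left out.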

How the data were processed

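RNA was measured in 27 ventricle libraries. Values were raw read counts per Ensembl gene, taken as deposited by the authors. The submitters' processing notes list STAR, featureCounts, DESeq2, Salmon and build GRCm38 (mm10), with no role or version. No source used here gives the annotation release or strand setting. Total RNA was extracted with TRIzol and a Qiagen kit and libraries were made at BGI for DNBseq, per the labels' protocols. Symbols and exon lengths came from GENCODE M21 (55141 identifiers matched, 346 did not, holding 0.0173% of counts).

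Tests used edgeR 4.0.16 (R 4.3.3) with filterByExpr, TMM, glmQLFit and glmQLFTest, with Benjamini-Hochberg adjustment over all genes tested and calls at an adjusted p under 0.05. Each SE was computed by dividing the size of the log2 fold change by the root of F. Knockout and transgene comparisons used only their own groups, ages used the 14 control libraries, and the code was tested on simulated data. Alternatives were DESeq2 1.42.0, its size factors, total count scaling, no filter, a single fit of all libraries, a replicate block, and leaving out each library or named pairs. Depths of 21929347 to 25675115 counts put the floor of 3 counts at 0.173 CPM in P60 controls of 7 days and 0.178 CPM in those of 14 days, for counting error only. The members, gene lists and tests were chosen with earlier results of these data known, and support nothing independently. Members called in some comparison with a group mean of at least 1 CPM in a group could be given library by library, others by range or highest value. RefSeq promoters (GRCm38.p6) covered 32 members.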

Additional observations from a re-analysis of the deposited data

Results flagged for a closer look

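In 174 group-by-gene checks, 7 libraries stood apart from the others of their group by Dixon's test for the gap to the nearest library, and chance marks about 1 in 20 groups. Of the P1 controls, library 4 had 0.656 CPM of Mmp3, the highest of 4, against 0 to 0.0321 CPM in the others. P1 library 2 had 7.99 CPM of Adamts8, the lowest, against 14.0 to 15.2 CPM. P1 library 3 was lowest for Adamts12, at 15 CPM against 18.6 to 18.9 CPM, and for Mmp17, at 2.10 CPM against 2.30 to 2.33 CPM. Of the libraries labelled Tg, library 3 had 8.56 CPM of Adamts8, the highest, against 7.07 to 7.33 CPM, and library 4 had 15.6 CPM of Mmp11, the lowest, against 18.7 to 19.0 CPM. Library 7 labelled KO at 14 days had 0.353 CPM of Mmp25, the lowest, against 0.460 to 0.466 CPM.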

How the results depend on the processing

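Counts of members called at 7 days ranged from 15 to 18 higher and stayed at 4 lower when each library was left out, and total count scaling left 2 lower. At 14 days they ranged from 11 to 14 higher and from 2 to 3 lower, and total count scaling left 1 lower. For the difference between the times, leaving out each library gave 0 in both directions. DESeq2 called 1 member higher and 2 lower, with 0.928% of all genes tested called. The fit of all 27 libraries called 1 member lower, with 0.301% of all genes called. For the libraries labelled Tg the ranges were 4 to 7 higher and 9 to 11 lower, and the fit of all libraries called 2 higher and 2 lower. For P7 against P1 they were 8 to 12 higher and 3 to 7 lower, and 8 were lower without the low-count filter, where 10.9% of all genes were called. Leaving out P7 control library 1 gave the count of 3. For P60 against P7 they were 4 to 6 higher and 25 lower, and for P60 against P1 5 to 7 higher and 21 to 24 lower, with 4 higher under total count scaling. When each library was left out, 43% to 51% of all genes were called at 7 days and 33.4% to 49.2% at 14 days. For the libraries labelled Tg the share was 23% to 28.6%, and for P7 against P1 15% to 27.7%. It was 62.4% to 71.7% for P60 against P7 and 70.4% to 74.2% for P60 against P1. Under that scaling Adamts5 (-0.14), Mmp19 (-0.07) and Timp2 (-0.47) changed sign between P1 and P60. Leaving out P1 libraries 3 and 4 together, chosen after seeing the data, ended the call of Mmp28 between P1 and P60 (-0.39). The cause of these changes was not tested. Same-numbered libraries of paired groups did not deviate together (correlations of -0.207 to 0.082), so the numbers were not taken to pair them. With replicate number as a block, 14 members rose and 4 fell at 7 days, where 44.2% of all genes tested were called. At 14 days 13 rose and 3 fell, where 41.5% of all genes were called. In the libraries labelled Tg 7 rose and 10 fell, where 24.4% of all genes were called. The block left 7 higher and 4 lower for P7 against P1, where Adamts17, Mmp14 and Timp4 lost their calls and all genes called numbered 1624 in place of 3844. It left 6 higher and 24 lower for P60 against P7, and 5 higher and 20 lower for P60 against P1, where Mmp19 and Timp2 lost theirs. Of all genes tested, the block called 69.7% for P60 against P7 and 65.8% for P60 against P1. Members under about 1 CPM rest on few counts, and groups of 3 to 5 libraries limit every test.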
